A study of Homo sapiens with 8 samples.

Results

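EGF family ligands bind receptors of the ERBB family at the cell surface, and the 7 genes described here are 4 of the ligands, AREG, EREG, HBEGF and TGFA, and 3 of the receptors, EGFR, ERBB2 and ERBB3. They were taken by symbol from an RNA-seq table of 17166 genes, and all 7 were found. PolyA-selected RNA had been sequenced from HCT116, a human colorectal cancer cell line, after stable introduction of 1 of 2 hairpins against the homeobox gene HOXB8. Doxycycline (dox) switches on the hairpin. Both lines, sh1 and sh2, were grown for 72 hours with dox at 1 ug/ml or without it. Every group thus holds HCT116 cells with a HOXB8 hairpin: sh1 no-dox, sh1 dox, sh2 no-dox and sh2 dox, with 2 libraries in each and 8 in all. The labels do not say whether a line is a clone or a pool. No group had dox without a HOXB8 hairpin, so an effect of the drug and an effect of lower HOXB8 cannot be told apart.

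The ligands are made as membrane-anchored precursors that ADAM metalloproteases cut free, after which they bind EGFR on the same or on nearby cells. Bound receptors pair with each other and signal through RAS and ERK and through PI3K and AKT. ERBB2 has no known ligand of its own and acts as a partner, while ERBB3 binds neuregulins and has little kinase activity, so it also needs a partner. In colorectal cancer AREG and EREG are the ligands best known as markers of EGFR-dependent tumours. AREG and EREG are neighbours on chromosome 4, in the order EPGN, EREG, AREG and BTC among protein-coding genes.

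Values are FPKM, fragments counted per transcript length and sequencing yield, which allow only approximate comparison between genes and between libraries. They do not tell how many reads a value rests on. FPKM columns summed to 440063 to 446889, and 15592 to 15762 genes were above 0 in a library. HOXB8 read 17.3 to 20.8 FPKM in the 4 no-dox libraries and 5.74 to 7.39 FPKM in the 4 dox libraries, so the targeted gene followed the labels. Of 7 markers of colon epithelium, 6 were in the table and 5 averaged at least 1 FPKM. EPCAM, KRT8, KRT18, CDH1 and CDX2 were those 5, while VIL1 was at 0 to 0.04 FPKM. Of 9 markers of fibroblasts, leukocytes and endothelium, 7 were in the table. COL1A1 (6.28 to 8.38 FPKM) and PTPRC (1.09 to 1.64 FPKM) averaged at least 1 FPKM, and the fibroblast gene COL1A2, the T cell gene CD3E and the endothelial genes PECAM1 and VWF stayed at or below 0.36 FPKM. The labels call the repeats independent, and the limma p-values below rest on the spread between such repeats of these lines, moderated over all genes. The exact permutation p-values regroup all 8 libraries without regard to the line, so a difference between the lines is part of their spread.

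EREG and AREG, the most abundant members, are shown here by their upstream sequences because they lie next to each other in the genome. The windows are the 250 bases before the RefSeq transcription start in GRCh38.p14, both on the + strand, EREG at chr4:74364895-74365144 and AREG at chr4:74444886-74445135. Capitals mark matches to 7 short motifs searched on both strands. They were the TATA box as TATAAA, the box named by its letters CCAAT and the cyclic AMP response element as TGACGTCA. The others were the AP-1 site as TGANTCA, the EGR site as GCGNGGGCG, the E-box of MYC as CACGTG and a homeobox motif as TAATTA.
EREG: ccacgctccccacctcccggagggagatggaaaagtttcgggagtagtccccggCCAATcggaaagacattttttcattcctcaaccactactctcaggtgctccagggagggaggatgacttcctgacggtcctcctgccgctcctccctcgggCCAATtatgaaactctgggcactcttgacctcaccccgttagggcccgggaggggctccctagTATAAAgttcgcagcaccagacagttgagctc
AREG: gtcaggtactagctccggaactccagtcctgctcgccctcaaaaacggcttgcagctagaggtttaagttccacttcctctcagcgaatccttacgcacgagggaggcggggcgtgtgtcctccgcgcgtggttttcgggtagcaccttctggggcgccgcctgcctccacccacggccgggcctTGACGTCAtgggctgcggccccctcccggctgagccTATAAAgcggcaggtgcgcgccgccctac
No 2 matches overlapped. Both windows held 1 TATA box, at 32 to 27 bases before the start in EREG and at 29 to 24 bases before it in AREG, and 10.7% of 35116 windows of this length held one. EREG had 2 CCAAT boxes and AREG had 0, against 32% of windows with at least 1. AREG had 1 cyclic AMP response element, at 65 to 58 bases before the start, which 1.65% of windows held and EREG did not. Neither window held the other 4 motifs as written, each present in 4.35% to 8.41% of windows. Shorter homeobox cores such as TAAT, or ATTA on the other strand, were not searched, so their absence is not shown.

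The level of the members followed the same order in all 8 libraries: EREG, AREG, ERBB2, EGFR, TGFA, ERBB3 and HBEGF from highest to lowest. Means over the 8 libraries were 79.3 FPKM for EREG, 61.3 for AREG, 28.8 for ERBB2, 21.1 for EGFR, 18.6 for TGFA, 14.3 for ERBB3 and 3.02 for HBEGF. EGFR and TGFA were the only neighbours in this order whose ranges over the 8 libraries overlapped, although EGFR was above TGFA in 8 of 8 libraries. EREG lay in the top of the table, with 938 of 17166 genes at a higher mean, and HBEGF below the middle, with 10079 higher. AREG and EREG together made up 85.6% to 88% of the summed FPKM of the 4 ligands in each library. AREG has a near-identical copy, AREGB, in older annotations, and how its reads were assigned is not given in the sources used here, so its level is less certain than that of the others.

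**Figure D1:**
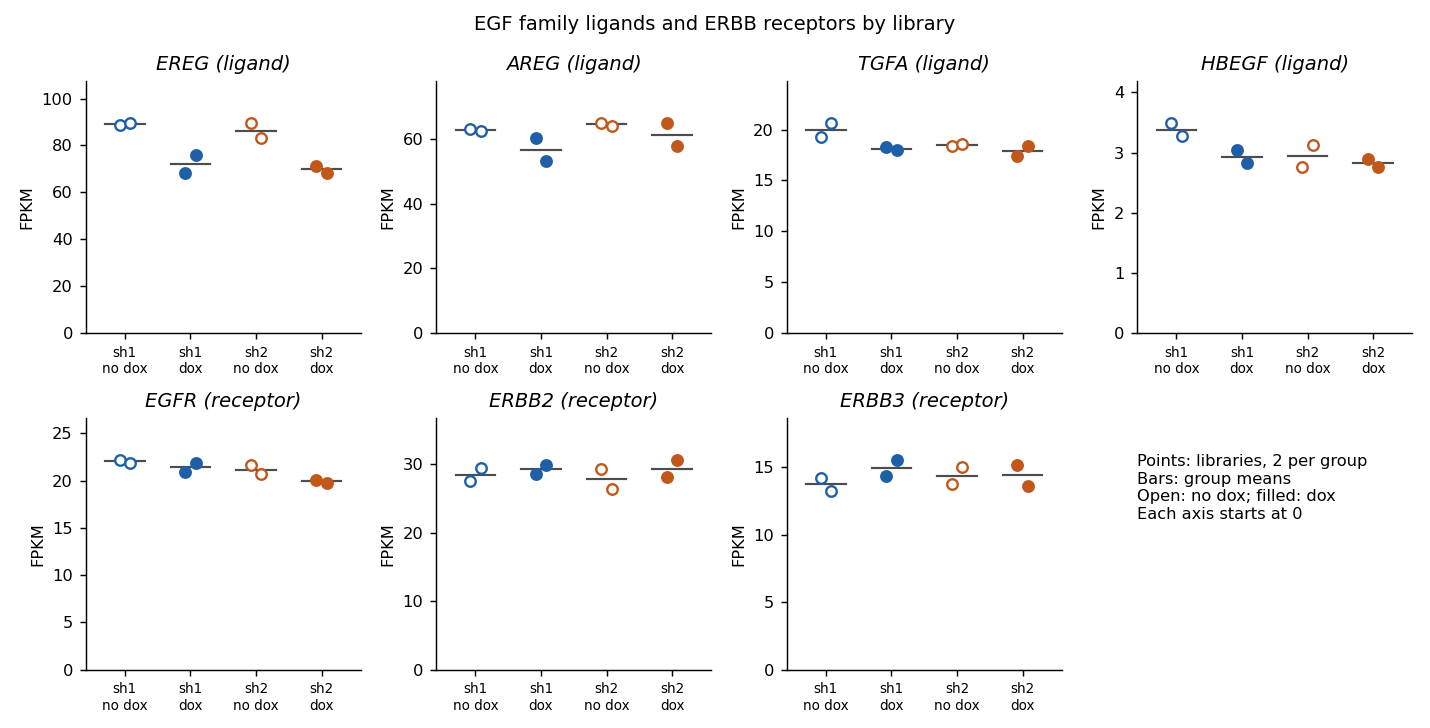
FPKM of each member in every library (points, 2 per group; bars are group means; open points without dox, filled points with dox; each axis starts at 0). The 4 dox libraries of EREG, 68.2 to 76 FPKM, all lie below its 4 no-dox libraries, 83.1 to 89.6 FPKM, while the states of each other member overlap.

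EREG, the ligand epiregulin, was the 1 member called lower with dox by limma, and its mean fell by the same share in both lines. In the sh1 line EREG read 88.5 and 89.6 FPKM without dox and 68.2 and 76 FPKM with it. In the sh2 line EREG read 89.5 and 83.1 FPKM without dox and 71.3 and 68.2 FPKM with it. Every dox library was thus below every no-dox library. How many of all tested genes separate in this way was not counted. EREG averaged 87.7 ± 3.09 FPKM without dox and 70.9 ± 3.67 FPKM with it (SD, n = 4 in each state), 19.1% lower over all and 19.1% lower in each line. The averaged difference of log2(FPKM + 1) was -0.30 (SE 0.04, 95% interval -0.39 to -0.21, limma adjusted p = 0.00136). A two-sided exact permutation test of 4 libraries against 4, without regard to the line, gave an unadjusted p = 0.0286, the smallest that this design allows. Of 11712 genes tested, 122 had a difference as low as that of EREG or lower. In bulk RNA, fewer cells that make EREG and less EREG RNA per cell cannot be told apart.

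Taken line by line, EREG fell by 0.30 on the log2 scale in sh1 (SE 0.06, limma adjusted p = 0.0156) and by 0.30 in sh2 (SE 0.06, limma adjusted p = 0.0269). These 2 calls rest on 2 libraries a group: that in sh1 was lost without sh1 no-dox replicate 1 (limma adjusted p = 0.0995) or 2 (0.0836) or sh1 dox replicate 1 (0.0764), and that in sh2 without sh2 no-dox replicate 1 (0.224) or 2 (0.0644) or sh2 dox replicate 2 (0.113). The averaged call held without each of the 8 libraries (limma adjusted p = 0.00161 to 0.010). The difference between the lines (sh2 minus sh1) was 0.00 (95% interval -0.18 to 0.18, limma adjusted p = 0.998).

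AREG, the ligand amphiregulin, is the neighbour of EREG. AREG read 63 and 62.6 FPKM in sh1 no-dox, 60.2 and 53.2 FPKM in sh1 dox, 64.8 and 64.1 FPKM in sh2 no-dox, and 64.9 and 57.8 FPKM in sh2 dox. The no-dox libraries lay within 2.28 FPKM of each other, and 1 dox library, sh2 dox replicate 1, was above all of them. AREG averaged 63.6 ± 1.04 FPKM without dox and 59 ± 4.88 FPKM with it (SD, n = 4 in each state). Its averaged difference of log2(FPKM + 1) was -0.11 (95% interval -0.21 to -0.01) and did not pass (limma adjusted p = 0.125, exact permutation p = 0.143). AREG did pass without sh1 dox replicate 1 (-0.15, limma adjusted p = 0.0464) or without sh2 dox replicate 1 (-0.15, limma adjusted p = 0.0334), the dox libraries with its higher values in each line.

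TGFA, the ligand transforming growth factor alpha, read 19.3 and 20.6 FPKM in sh1 no-dox, 18.3 and 18 FPKM in sh1 dox, 18.3 and 18.5 FPKM in sh2 no-dox, and 17.4 and 18.4 FPKM in sh2 dox. The sh1 no-dox libraries were the highest, and the states overlapped through 1 sh2 dox library. The averaged difference of TGFA was -0.09 on the log2 scale (95% interval -0.17 to 0.00, limma adjusted p = 0.142, exact permutation p = 0.0571). HBEGF, the heparin-binding ligand, was the lowest member, at 3.49 and 3.27 FPKM in sh1 no-dox, 3.04 and 2.82 FPKM in sh1 dox, 2.76 and 3.12 FPKM in sh2 no-dox, and 2.89 and 2.76 FPKM in sh2 dox. Its lowest value occurred in both states of the sh2 line. The averaged difference of HBEGF was -0.10 (95% interval -0.23 to 0.03, limma adjusted p = 0.259), on a scale that shrinks changes of such low values, and its mean FPKM was 8.94% lower with dox.

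Among the receptors, EGFR, which binds the 4 ligands, read 22.2 and 21.9 FPKM in sh1 no-dox, 20.9 and 21.9 FPKM in sh1 dox, 21.7 and 20.7 FPKM in sh2 no-dox, and 20.1 and 19.8 FPKM in sh2 dox. The sh2 dox libraries were the lowest, and the states overlapped. EGFR differed by -0.06 on the log2 scale (95% interval -0.14 to 0.01, limma adjusted p = 0.242). ERBB2, the receptor without a ligand, read 27.5 and 29.6 FPKM in sh1 no-dox, 28.7 and 29.9 FPKM in sh1 dox, 29.3 and 26.5 FPKM in sh2 no-dox, and 28.1 and 30.7 FPKM in sh2 dox. Repeats of ERBB2 in a group lay up to 2.86 FPKM apart, more than the 1.14 FPKM between the means of the states. ERBB2 differed by 0.06 (95% interval -0.04 to 0.16, limma adjusted p = 0.428). ERBB3, the neuregulin receptor, read 14.2 and 13.2 FPKM in sh1 no-dox, 14.3 and 15.5 FPKM in sh1 dox, 13.7 and 15 FPKM in sh2 no-dox, and 15.2 and 13.6 FPKM in sh2 dox. Its sh1 dox libraries were above its sh1 no-dox libraries, and the sh2 libraries were mixed. ERBB3 differed by 0.06 (95% interval -0.05 to 0.17, limma adjusted p = 0.438).

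Of the 7 members 0 rose and 1 fell by limma in the averaged comparison, where 16.3% of all tested genes changed, 10.1% higher and 6.2% lower. At an unadjusted p under 0.05 there were 3, EREG, AREG and TGFA, all lower, where 3767 of 11712 tested genes were under it. The median difference of the members was -0.09, beside 0.02 over all tested genes. The 6 members other than EREG did not pass, and their intervals ran from -0.23 to 0.17 on the log2 scale. In the sh1 line 1 of 7 members, EREG, was called, where 6.27% of all genes were and 2.56% were lower. In the sh2 line 1 of 7, again EREG, was called, where 2.54% of all genes were and 1.15% were lower. The per-line and averaged comparisons share their libraries. Members other than EREG ranged from -0.16 for HBEGF to 0.12 for ERBB3 in sh1 and from -0.08 for EGFR to 0.07 for ERBB2 in sh2.

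**Figure D2:**
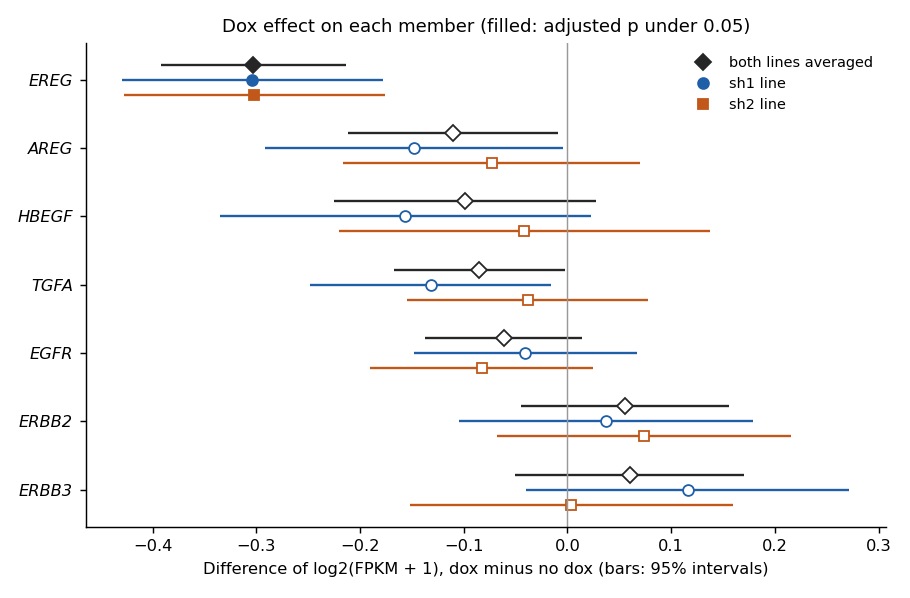
Difference of log2(FPKM + 1) between dox and no dox for each member, averaged over both lines (diamonds), in sh1 (circles) and in sh2 (squares), with 95% intervals; filled symbols have an adjusted p under 0.05. EREG lies at -0.30 in all 3 fits, and the averaged values of the other members lie between -0.11 and 0.06.

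The ratio of EREG to each other member within a library, 6 ratios in all, is given as a description with no test, since EREG was chosen for it after its fall was seen and all 6 share its values. The ratio of EREG to EGFR was 3.99, 4.09, 4.13 and 4.01 in the no-dox libraries and 3.26, 3.46, 3.56 and 3.44 in the dox libraries, with no overlap. The states were also apart for the ratio to ERBB2 (3.03 to 3.22 without dox, 2.22 to 2.54 with it), to ERBB3 (5.55 to 6.77 and 4.70 to 5.01) and to TGFA (4.34 to 4.88 and 3.70 to 4.23). The ratio of EREG to AREG was 1.41, 1.43, 1.38 and 1.3 without dox and 1.13, 1.43, 1.10 and 1.18 with it. It overlapped through sh1 dox replicate 2, where AREG was lowest (53.2 FPKM) and EREG was highest among the dox libraries (76 FPKM). The ratio to HBEGF overlapped too, at 25.4 to 32.4 without dox and 22.4 to 26.9 with it. These ratios, chosen after values were seen, do not show whether EREG fell more than any other member.

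**Figure D3:**
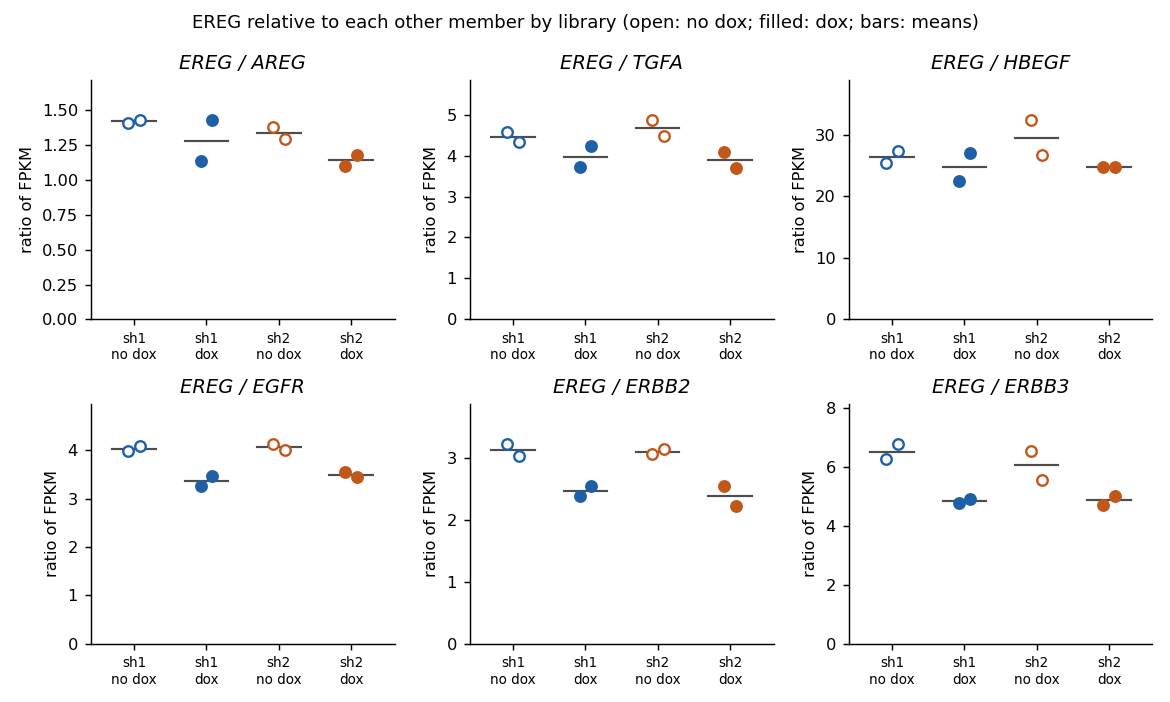
Ratio of EREG to each other member in every library (points, 2 per group; bars are group means; open points without dox, filled points with dox). The dox libraries lie below the no-dox libraries for TGFA, EGFR, ERBB2 and ERBB3 and overlap them for AREG and HBEGF, where sh1 dox replicate 2 stands at 1.43 and 26.9.

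The 2 lines did not differ in a way that passed for any member. Without dox, differences (sh2 minus sh1) ran from -0.15 for HBEGF to 0.06 for ERBB3, and 0 of 7 members were called by limma, where 1.45% of all genes were, with 0 members at an unadjusted p under 0.05. With dox they ran from -0.10 for EGFR to 0.11 for AREG, again with 0 called and 0 at an unadjusted p under 0.05, where 0.0598% of all genes were called. The dox effect itself differed between the lines (sh2 minus sh1) by -0.11 for ERBB3 to 0.12 for HBEGF, with 0 members called, 0 at an unadjusted p under 0.05 and 0% of all genes called. Intervals of that difference ran from -0.33 to 0.37 over the members. Unadjusted p was under 0.05 for 2116 of 11712 tested genes without dox, 1163 with dox and 566 for the difference of the dox effects.

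The members and the pathway lists below were chosen with earlier results of these data known, so their counts beside shares over all genes are descriptions. The rest of the EGF family was scarce. Of 8 other ligands and receptors, 6 were in the table and 2, BTC and NRG1, averaged at least 1 FPKM. EGF, EPGN, NRG2 and NRG4 averaged 0.136 to 0.51 FPKM and were not tested. NRG1, a neuregulin that binds ERBB3, read 1.83 and 1.66 FPKM in sh1 no-dox, 1.28 and 0.98 FPKM in sh1 dox, 0.89 and 1.24 FPKM in sh2 no-dox, and 0.84 and 0.51 FPKM in sh2 dox. It was lower with dox within each line, and its states overlapped across lines. NRG1 differed by -0.34 (SE 0.09, limma adjusted p = 0.0335). It met the limit of 1 FPKM only through its no-dox mean of 1.41 FPKM, against 0.902 FPKM with dox, so that its being tested depended on the difference and the call is no firm one. The call of NRG1 was lost without sh1 no-dox replicate 1 (limma adjusted p = 0.109) or 2 (0.0668), sh1 dox replicate 2 (0.115), sh2 no-dox replicate 2 (0.113) or sh2 dox replicate 2 (0.0944), with no filter on low values (0.0843) and with no term for the line (0.155). Its mean FPKM was 35.8% lower with dox, and the log2 difference was -0.60 with a pseudocount of 0.1. BTC, the ligand betacellulin, averaged 1.24 FPKM without dox and 1.57 FPKM with it and did not pass (0.19, limma adjusted p = 0.113).

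Ligand precursors are freed by proteases, of which the RNA was measured. Of 9 genes of ligand shedding and trafficking 8 were tested, 0 rose by limma and 1 fell, with a median of 0.01. Over all tested genes 10.1% rose and 6.2% fell. ADAM17, the main sheddase of AREG, EREG, HBEGF and TGFA, averaged 14.1 ± 0.248 FPKM without dox and 14.3 ± 0.897 FPKM with it (SD, n = 4 in each state; limma adjusted p = 0.839). ADAM15 was the most abundant gene of the list at 83.1 FPKM and did not pass (0.01, limma adjusted p = 0.784). NAPSA, an aspartic protease gene named after its value was seen, had the largest log2 difference of the list. At a low level, 1.17 ± 0.232 against 1.6 ± 0.30 FPKM, it did not pass (0.26, limma adjusted p = 0.106). Whether NAPSA acts on these ligands was not tested. ADAM9, another protease of the family, passed in neither line alone. Averaged over the lines it fell from 82 ± 3.06 to 75.5 ± 2.47 FPKM (-0.12, limma adjusted p = 0.0236). That call was lost without sh1 no-dox replicate 1 (0.0888) or 2 (0.0698), sh1 dox replicate 2 (0.0919), sh2 no-dox replicate 1 (0.0895) or sh2 dox replicate 2 (0.0501), and with no term for the line (0.0656) or no trend in the moderation (0.063).

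Of 19 genes that inhibit ERBB receptors or govern their turnover 0 rose by limma and 3 fell, ERRFI1, PTPN1 and CBL. Over all tested genes 10.1% rose and 6.2% fell. The median over the list was -0.01. ERRFI1, also called MIG6, is induced by EGFR signalling and binds and blocks the EGFR kinase. ERRFI1 was the most abundant gene of the list and read 162 and 162 FPKM in sh1 no-dox, 124 and 133 FPKM in sh1 dox, 169 and 173 FPKM in sh2 no-dox, and 130 and 138 FPKM in sh2 dox. Every dox library of ERRFI1 was below every no-dox library, a separation that was not counted over all tested genes. ERRFI1 averaged 166 ± 5.75 FPKM without dox and 131 ± 5.98 FPKM with it (SD, n = 4 in each state), 21.1% lower (-0.34, SE 0.03, limma adjusted p = 2.44e-04). It fell in sh1 (-0.33, limma adjusted p = 0.00403) and in sh2 (-0.35, limma adjusted p = 0.00502). PTPN1, a tyrosine phosphatase that acts on EGFR, fell by 0.17 on the log2 scale (limma adjusted p = 0.00664). That call was lost with no term for the line (0.138). PTPN1 passed in sh1 (-0.24, limma adjusted p = 0.0134) and not in sh2 (-0.09, 0.279). CBL, a ubiquitin ligase of EGFR, fell by 0.16 (limma adjusted p = 0.0148). Its call was lost without sh1 no-dox replicate 1 (0.0638) or sh2 no-dox replicate 1 (0.0577). CBL passed in neither line alone (limma adjusted p = 0.18 in sh1 and 0.0681 in sh2).

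Of 19 tested adaptors and members of the RAS to ERK cascade 0 rose by limma and 3 fell, MAPK3 and SHC1 among them. The shares over all tested genes were 10.1% higher and 6.2% lower. The median of the list was -0.04. MAPK3, the kinase ERK1, fell from 32.1 ± 1.24 to 28.1 ± 2.66 FPKM (SD, n = 4 in each state; -0.19, limma adjusted p = 0.0155). The adaptor gene SHC1 fell from 73.7 ± 2.0 to 67.9 ± 2.42 FPKM (-0.12, limma adjusted p = 0.0403). MAP2K2, the most abundant gene of the list at 89.5 FPKM, did not pass (0.03, limma adjusted p = 0.539). MAPK3 passed in sh1 (-0.26, limma adjusted p = 0.035) and not in sh2 (-0.12, 0.315). SHC1 passed in neither line alone. The MAPK3 call was lost without sh1 no-dox replicate 1 (0.0577) or sh2 no-dox replicate 2 (0.0623), and with no filter on low values (0.0561) or no term for the line (0.0679). The SHC1 call held without 1 library in turn only for sh1 dox replicate 1, with limma adjusted p of 0.0509 to 0.143 without each of the other 7, and it was lost with no filter on low values (0.0803), no trend in the moderation (0.0881) and no term for the line (0.0625). Of 11 tested genes of the PI3K to AKT arm 0 were called by limma and 4 had an unadjusted p under 0.05. Over all 11712 tested genes 16.3% were called and 3767 had an unadjusted p under 0.05. The median of that arm was 0.05, and AKT1, its most abundant gene, read 0.05 (limma adjusted p = 0.219).

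Of 16 genes that ERK signalling induces or that feed back on it, 6 fell and 1 rose (6.2% and 10.1% of all tested genes), with a median of -0.07. The list was chosen with earlier results of these data known, so these shares are no test of it. EGR1, an immediate early transcription factor gene, read 24.6 and 24.2 FPKM in sh1 no-dox, 13.3 and 11.4 FPKM in sh1 dox, 25 and 24.2 FPKM in sh2 no-dox, and 14.8 and 17.8 FPKM in sh2 dox. Its states did not overlap, and its mean was 41.5% lower with dox (-0.75, limma adjusted p = 1.10e-04). How common such separation was over all tested genes was not counted. DUSP5, a phosphatase of ERK, fell from 72.3 ± 6.98 to 56.5 ± 2.05 FPKM (SD, n = 4 in each state; -0.35, limma adjusted p = 0.00153). EPHA2, a receptor tyrosine kinase gene, fell from 89.6 ± 8.52 to 73.9 ± 3.05 FPKM (-0.27, limma adjusted p = 0.00154). CCND1, cyclin D1, fell by 0.20 on the log2 scale (limma adjusted p = 0.00154), a call lost with no term for the line (0.160). DUSP5, EPHA2 and CCND1 passed in sh1 and not in sh2. DUSP5 read -0.45 in sh1 (limma adjusted p = 0.0054) and -0.25 in sh2 (0.0836). EPHA2 read -0.39 in sh1 (limma adjusted p = 0.00323) and -0.16 in sh2 (0.143). CCND1 read -0.33 in sh1 (limma adjusted p = 0.00196) and -0.08 in sh2 (0.322). The gene that rose was ETV5, an ETS factor gene (0.14, limma adjusted p = 0.0338), named after its value was seen. The ETV5 call held with 7 of 17 alternatives, among them the settings without sh1 dox replicate 1 and without sh2 dox replicate 2. Without each of the other 6 libraries its limma adjusted p was 0.0585 to 0.118. IER3, the most abundant gene of the list at 259 FPKM, read 0.03 and did not pass (limma adjusted p = 0.70). Common feedback genes of the SPRY and SPRED families, SPRY1, SPRY2, SPRY4, SPRED1 and SPRED2, ranged from -0.07 to 0.08 and did not pass. FOSL1, a gene of the AP-1 family also named after its value was seen, fell by 0.33 (limma adjusted p = 0.0019), and DUSP6, another ERK phosphatase, by 0.13 (limma adjusted p = 0.0301). The DUSP6 call held without sh2 dox replicate 2. It was lost without each of the other 7 libraries (limma adjusted p = 0.0516 to 0.107) and with no term for the line (0.239), no filter on low values (0.0643) or no trend in the moderation (0.0669). In sh1 5 of these 16 genes fell, where 2.56% of all genes were lower, and in sh2 2 did, EGR1 and FOSL1, where 1.15% were lower. The difference between these counts was not tested.

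**Figure D4:**
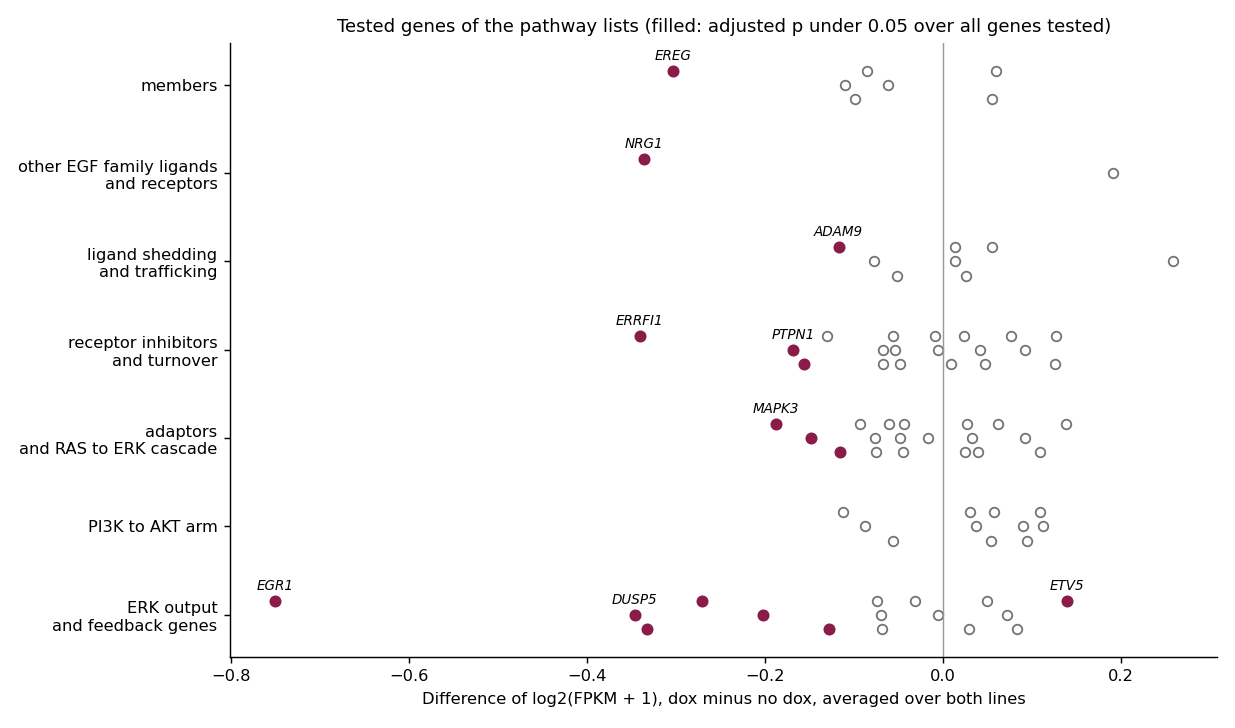
Difference of log2(FPKM + 1) between dox and no dox, averaged over both lines, for each tested gene of the members and of 6 pathway lists (rows; filled points have an adjusted p under 0.05 over all genes tested; points are spread vertically only to keep them apart). EREG at -0.30 lies near ERRFI1 at -0.34 and DUSP5 at -0.35, and 0 genes of the PI3K to AKT arm are filled.

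Markers of epithelial cells moved with dox as well. KRT8 fell from 1312 ± 199 to 1106 ± 67.1 FPKM and KRT18 from 730 ± 108 to 594 ± 34 FPKM (SD, n = 4 in each state), while EPCAM rose from 195 ± 5.22 to 213 ± 2.5 FPKM and CDH1 from 21 ± 0.549 to 25.1 ± 0.867 FPKM. Of the 5 tested markers 2 rose, 2 fell and CDX2 did not pass in the averaged comparison. Over all tested genes 10.1% rose and 6.2% fell. Adjusted p from limma was 5.86e-04 for KRT8, 8.27e-04 for KRT18, 0.0106 for EPCAM and 0.0029 for CDH1. The KRT8 and KRT18 calls were lost with no term for the line (limma adjusted p = 0.110 and 0.0586). The EPCAM call was lost without sh1 no-dox replicate 1 (0.0615). In sh1 2 markers rose and 2 fell, where 6.27% of all genes were called. In sh2 1 rose, CDH1, and 0 fell, where 2.54% were called. KRT8 differed by -0.35 in sh1 (limma adjusted p = 0.00128) and by -0.12 in sh2 (0.129). KRT18 differed by -0.40 in sh1 (limma adjusted p = 0.0022) and by -0.18 in sh2 (0.0903). The summed epithelial markers ran from 1962 to 2560 FPKM without dox and from 1848 to 2058 FPKM with it. The summed markers of other cell types ran from 8.2 to 9.55 FPKM without dox and from 8.1 to 10.3 FPKM with it. COL1A1 made up most of that sum. PTPRC, a leukocyte gene, read 1.09 to 1.23 FPKM without dox and 1.31 to 1.64 FPKM with it, with no overlap. It did not pass (0.19, limma adjusted p = 0.0912), and separation of the states was not counted over all tested genes. The part of these shifts in the result for EREG was not tested.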

How the data were processed

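The deposited table gives 1 FPKM value per gene and library, which the authors scaled to transcript length and mapped fragments, per the file headers. Build hg19 and the aligners HISAT and Bowtie2 are named per the submitters' processing notes; which quantifier was run is not given in the sources used here. The table writes sh3 where the labels write sh2, and sh3 was taken as sh2 by elimination. Titles set the groups, since the source field calls all 8 samples induced. Genes averaging at least 1 FPKM over the 8 libraries (11712; 5454 were not tested) were fitted on log2(FPKM + 1) in limma 3.58.1 (R 4.3.3), with 1 mean per group, trended moderation and two-sided tests, and p-values were adjusted by Benjamini-Hochberg over the genes tested; an adjusted p under 0.05 was called. Log2 differences are of log2(FPKM + 1) and understate changes of low values; percentages are of mean FPKM. There were 6 comparisons. All 7 members are named, and from each of 6 pathway lists up to 4 called genes with the smallest p and the most abundant gene. FOSL1, DUSP6, ETV5, ADAM17, NAPSA and the SPRY and SPRED genes are beyond that rule and were named with values known. Of the genes this rule names, 2 are not reported here. The ratios and the motifs were added after values were seen. Members and lists were chosen with earlier results of these data known. Alternatives were another pseudocount (0.1), filters of 0 and 5 FPKM, quantile and trimmed-mean (TMM) scaling, moderation without trend or robust, a replicate block, no term for the line, and each library left out; their use on pathway genes was chosen after seeing the data. The fit was tested on simulated data.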

Additional observations from a re-analysis of the deposited data

How the results depend on the processing

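Over the averaged comparison, EREG was called under all 17 alternatives, from -0.34 to -0.26, and the count of members called moved from 1 to 2 with the replicate block, where AREG passed (adjusted p = 0.0459), and ranged from 1 to 2 with 1 library left out. Same-numbered libraries of different groups had deviations correlated at -0.03 to 0.22, so the numbers were not taken as pairs. In sh1 and in sh2 the count of members fell from 1 to 0 with no filter on low values (EREG adjusted p = 0.0703 in sh1, 0.110 in sh2) and with no trend in the moderation (0.0514 and 0.0884), and ranged from 0 to 1 with 1 library left out. The cause was not tested.

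Signs turned only for differences of members that were not called. By scaling, ERBB3 in sh2 read -5.04e-06 with quantile normalization and -0.00872 with TMM factors, the EREG difference between lines read -0.0242 with quantile normalization, and ERBB2 between the dox lines read -0.00464 with TMM factors. With 1 library left out, ranges that crossed 0 were -0.0124 to 0.0873 for ERBB2 in sh1, and in sh2 -0.156 to 0.00958 for AREG, -0.107 to 0.0245 for HBEGF and -0.0696 to 0.0768 for ERBB3. For the difference of the dox effects they were -0.0126 to 0.162 for AREG, -0.0748 to 0.0789 for EREG and -0.0352 to 0.108 for ERBB2. Between the lines without dox they were -0.0993 to 0.00626 for EREG and -0.104 to 0.039 for ERBB2. Between the lines with dox they were -0.121 to 0.0324 for EREG, -0.0791 to 0.00168 for HBEGF, -0.053 to 0.0225 for TGFA, -0.0577 to 0.0653 for ERBB2 and -0.125 to 0.0212 for ERBB3.

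Of all tested genes, the 1906 called in the averaged comparison became 1021 with no filter, 1074 with no term for the line and as few as 851 with 1 library left out, so the background share depends on the setting. In sh1 the 734 called became 155 with no filter, 379 with no trend and 1362 with the replicate block, and in sh2 the 297 became 35, 90 and 738. With 1 library left out they fell to as few as 99 in sh1 and 17 in sh2. With 2 libraries a group and no read counts, small changes of HBEGF and NRG1 cannot be resolved.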

Other observations

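The neighbours of EREG and AREG on chromosome 4 differed from them in level. EPGN read 0.18 to 0.34 FPKM and BTC 1.17 to 1.83 FPKM over the 8 libraries, against 53.2 FPKM or more for AREG and EREG in every library.

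Among 8881 other genes averaging at least 5 FPKM, the 3 whose log2(FPKM + 1) followed EREG most closely over the 8 libraries were ESYT2 (Pearson r = 0.98), ASNSD1 (0.979) and RAB12 (0.976). For AREG they were TMEM98 (0.967), PLPPR2 (0.964) and SNRNP35 (0.962). For HBEGF they were SDAD1 (0.968), RPF2 (0.958) and MRPL46 (0.957), and for TGFA they included SLC35F2 (0.937) and WDR1 (0.934). EGFR was followed by AGPS (0.977), STK17A (0.972) and ASUN (0.953), ERBB2 by NFAT5 (0.895), PARP6 (0.884) and STEAP3 (0.87), and ERBB3 by BAD (0.944), SLC25A26 (0.919) and GDE1 (0.915). These are the highest of many values over 8 libraries that share the dox contrast and the lines. Between the members themselves the highest value was 0.74, for EREG with EGFR, and EREG with AREG gave 0.45. The lowest was -0.70, for TGFA with ERBB3.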
